A study of Mus musculus with 4 samples.

Results

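The genes described here are 8 receptors for serotonin (*Htr1a*, *Htr1b*, *Htr2a*, *Htr2b*, *Htr2c*, *Htr3a*, *Htr4* and *Htr7*) and 2 genes for its removal (*Slc6a4* and *Maob*). They were taken by name, 10 of the 32585 genes or identifiers on the array, and are measured by 13 of its 39429 probes. *Htr2c* has 3 probes and *Htr4* has 2, and each gene is given by its brightest probe unless stated. The 4 arrays hold RNA of spinal cord and of duodenum from WT and IP6K2-KO mice, 1 array for each combination. The KO allele lacks exon 6 of *IP6K2*, which encodes the kinase domain, in every cell, and the WT animals were littermates. All mice were males of 20 weeks kept on CE-2 chow. Before tissue collection they were moved to a purified diet (iVid-neo), which they had for 1 week, and food was then withdrawn for 48 h. The duodenum was taken as an organ, with its mucosa, muscle and nerves together.

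Serotonin carries signals between neurons and also from the gut epithelium to nerves and muscle. In the gut it is made from tryptophan by enterochromaffin cells, starting with the enzyme TPH1. In the spinal cord it is released by fibres that descend from raphe neurons of the brainstem, which use TPH2. All the receptors listed are coupled to G proteins except HTR3A, which is a cation channel opened by serotonin. The transporter SLC6A4 takes serotonin back into neurons, platelets and enterocytes, and monoamine oxidases degrade it.

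The signal of a probe is its fluorescence after background subtraction by the scanner software, in arbitrary units. Its 75th percentile was 905 (WT) and 971 (labelled KO) in spinal cord, but 68.0 (WT) and 323 (labelled KO) in duodenum. In this order, 76.8%, 77.4%, 51.6% and 66.3% of probes were well above background. The lowest signal so classed was between 4.29 and 4.47 on each array. Differences are given on the log2 scale, after each array was centred on its 75th percentile. Where only 1 of the arrays compared was well above background, the difference is a lower bound. For it, the dim side was set to the higher of the probe's own level and the lowest level that counted as well above background there. No test was run on these unreplicated groups, and a technical SD, from probes spotted 10 times, covers spots of an array and not mice. The probe for *Ip6k2* itself gave signals of 452 and 1320 in spinal cord and 139 and 572 in duodenum, WT first. After normalization its level in duodenum was 1.04 and 0.83. In spinal cord it was higher on the array labelled KO, and its position relative to exon 6 is not given in the files, so genotypes are given as labelled.

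The tissues carried their own markers. All 8 neuronal and 6 of 7 astrocyte markers were lower past 2-fold in duodenum than in spinal cord in both genotypes, the exception being *Aldh1l1*, and all 7 enterocyte and 7 smooth muscle markers were higher, although with spiked-in control probes 3 of the smooth muscle markers were below 0 in WT. *Gfap*, an astrocyte filament gene, was not well above background in either duodenum, and *Alpi*, the intestinal alkaline phosphatase gene, was not well above background in either spinal cord. In bulk tissue, fewer cells of a type and less RNA per cell cannot be told apart.

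Between the tissues, *Slc6a4* was higher in duodenum, and *Htr2c*, *Htr7* and *Htr2a* were lower. All 10 genes were well above background on both spinal cord arrays. In WT duodenum, *Htr3a*, *Slc6a4* and *Maob* were well above background, and on the duodenum array labelled KO *Htr2b* was as well. *Htr1a*, *Htr1b*, *Htr2a*, *Htr2c*, *Htr4* and *Htr7* were not well above background in either duodenum, with signals of 0.974 to 3.50. These signals do not show that the receptors are absent from the duodenum, since a transcript confined to few cells may fall below this limit.

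**Figure D1:**
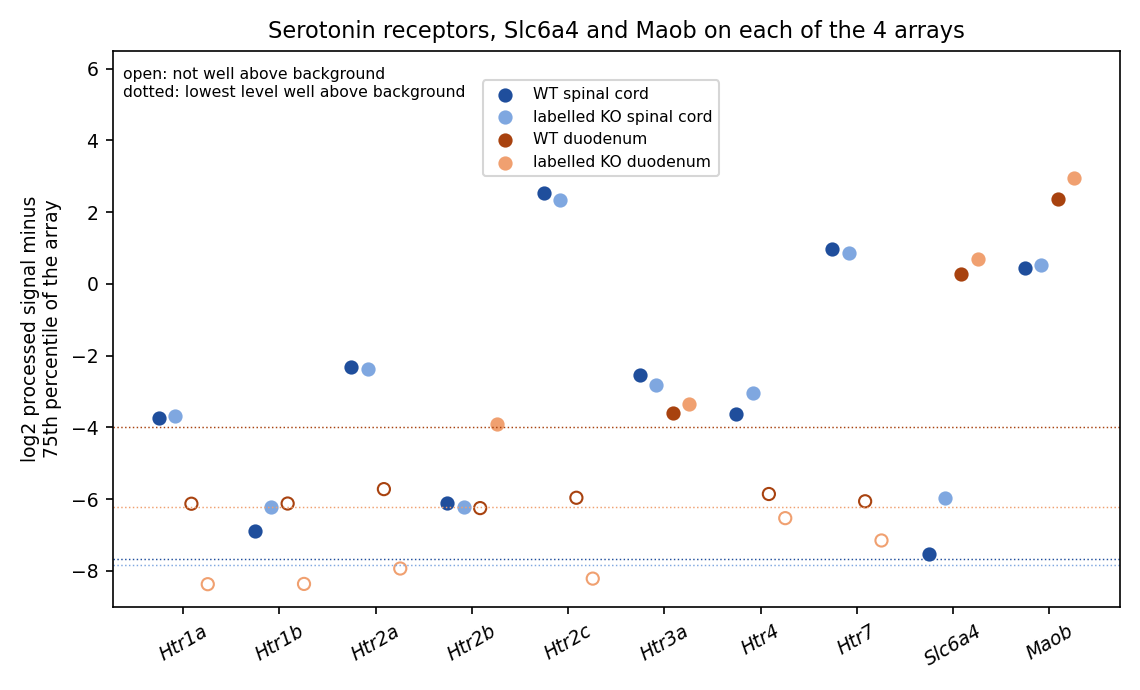
Normalized level (log2 of the processed signal minus the 75th percentile of the array) of each serotonin gene on each of the 4 arrays, 1 point per array. Filled points were well above background, open points were not, and the dotted lines give the lowest level well above background on each array. Levels should be compared within a gene, not between genes, since probes differ in efficiency.

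*Slc6a4* had a signal of 4.87 in WT spinal cord and 81.7 in WT duodenum, and of 15.5 and 519 on the arrays labelled KO. Both duodenum values were above both spinal cord values. It was higher in duodenum by 7.80 ± 0.311 (technical SD) on the log2 scale in WT, which is 223-fold, and by 6.65 ± 0.139 in the arrays labelled KO, which is 101-fold. The size rests on spinal cord signals near the limit of detection. Its direction held under every way of processing that was tried, over which the WT difference ranged from 1.85 to 8.02 and that of the arrays labelled KO from 4.01 to 6.93.

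*Maob* encodes an amine oxidase of the outer mitochondrial membrane, which degrades serotonin less readily than its relative MAOA does. Its signal was 1243 and 1406 in spinal cord and 354 and 2498 in duodenum, WT first. After normalization it was higher in duodenum, by 1.92 ± 0.066 (technical SD) in WT and by 2.42 ± 0.058 in the arrays labelled KO. The direction depended on the scaling, since the WT difference was −0.80 with quantile normalization within each tissue and −3.12 with scaling on spiked-in control probes, and that of the arrays labelled KO was −0.13 with the former. The median gene was itself higher in duodenum by 0.63 in WT and 0.30 in the arrays labelled KO. Relative to the median gene, a comparison chosen after the values were seen, *Maob* differed by 0.64 to 1.31 in WT and by 1.61 to 2.18 in the arrays labelled KO over the ways of obtaining the values. Scalings that shift all genes of an array alike cannot change this value.

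Among the receptors, *Htr2c*, *Htr7* and *Htr2a* were lower in duodenum in both genotypes. *Htr2c* and *Htr2a* encode receptors coupled to the phospholipase C pathway, and *Htr7* one that raises cyclic AMP. *Htr2c* had signals of 5268 and 4961 in spinal cord and 1.09 in each duodenum. It was at least 92.2-fold lower in WT duodenum and at least 381-fold lower on the array labelled KO. Over the ways of processing the bound on its log2 difference ran from −11.57 to −2.42 in WT and from −10.99 to −4.42 on the arrays labelled KO. *Htr7* had signals of 1776 and 1761 in spinal cord against 1.02 and 2.27 in duodenum, and was at least 31.1-fold and at least 135-fold lower, with bounds from −10.00 to −1.90 and from −9.49 to −3.57 on the log2 scale. *Htr2a* had signals of 181 and 189 in spinal cord against 1.29 and 1.32, and was at least 3.16-fold and at least 14.5-fold lower. Under both normexp corrections its difference on the arrays labelled KO was bounded at −0.42, short of 2-fold, and in WT neither gave a bound. Both add an offset of 50, far above its duodenum signals. The bounds are smaller in WT because its duodenum array was dimmer. The other *Htr2c* probes had spinal cord signals of 141 and 117 and of 38.7 and 37.6, and neither was well above background in duodenum.

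*Htr1a* and *Htr4*, whose receptors lower and raise cyclic AMP respectively, could be bounded less closely. *Htr1a* had signals of 68.2 and 75.6 in spinal cord, which made it at least 1.19-fold lower in WT duodenum and at least 5.80-fold lower on the array labelled KO. *Htr4* had signals of 73.3 and 117 in spinal cord, which gave at least 1.28-fold and at least 9.01-fold. The second *Htr4* probe was not well above background on any array, and with both probes averaged the difference on the arrays labelled KO was −0.82, short of 2-fold. *Htr1b*, an inhibitory receptor of nerve endings, had spinal cord signals of 7.66 and 13.2, too low to give a fold against WT duodenum, and was at least 1.01-fold lower on the array labelled KO. By the names in the authors' deposited table, the *Htr1b* difference would instead be −8.43 in WT and −5.63 on the arrays labelled KO. Under the *Htr1b* name the table holds what the scanner files list for a probe of *Elavl4*, a neuronal gene, and nothing in the files settles which name is right.

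*Htr3a*, the channel subunit, was the receptor gene well above background on all 4 arrays, with signals of 156 and 137 in spinal cord and 5.61 and 31.8 in duodenum, WT first. After normalization both duodenum levels were below both spinal cord levels. The difference was −1.07 ± 0.287 (technical SD) in WT, past 2-fold, and −0.51 ± 0.117 in the arrays labelled KO. Normexp is a model-based background correction, used without and with flagged local backgrounds replaced. Under it the difference was 0.25 and 1.14 in WT, and 0.26 both ways in the arrays labelled KO, so the direction changed in both genotypes. The correction adds an offset of 50, above both duodenum signals. This raises dim probes most on arrays with a low 75th percentile, such as 68.0 in WT duodenum. The sign under normexp therefore cannot decide the direction. *Htr2b*, a receptor known from smooth muscle, fibroblasts and heart valves, had signals of 13.3 and 13.0 in spinal cord, 0.895 in WT duodenum and 21.5 on the duodenum array labelled KO. On the arrays labelled KO it was higher in duodenum by 2.32 ± 0.20, although by −0.32 with quantile normalization within each tissue, and no fold could be given in WT.

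In WT, 2 genes were higher and 4 lower in duodenum past 2-fold, 6 of 10. Of the 25228 genes assessed, 53.2% passed in either direction, 30.2% higher and 23% lower. On the arrays labelled KO, 3 were higher and 5 lower, 8 of 10, against 55.7% of 25727 genes, 30.3% higher and 25.4% lower. The share of members past 2-fold was thus near that of all genes in WT. On the arrays labelled KO it was higher than that of all genes, but the 5 lower genes there were all bounds. The count fell to 3 of 10 when both arrays had to be well above background. It was 5 of 10 with either normexp correction. The share of all genes under these alternatives is not given here. The split moved with the scaling, to 1 higher and 6 lower in WT with quantile normalization within each tissue and to 1 and 9 with spiked-in control probes, and to 1 and 7 on the arrays labelled KO with either.

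**Figure D2:**
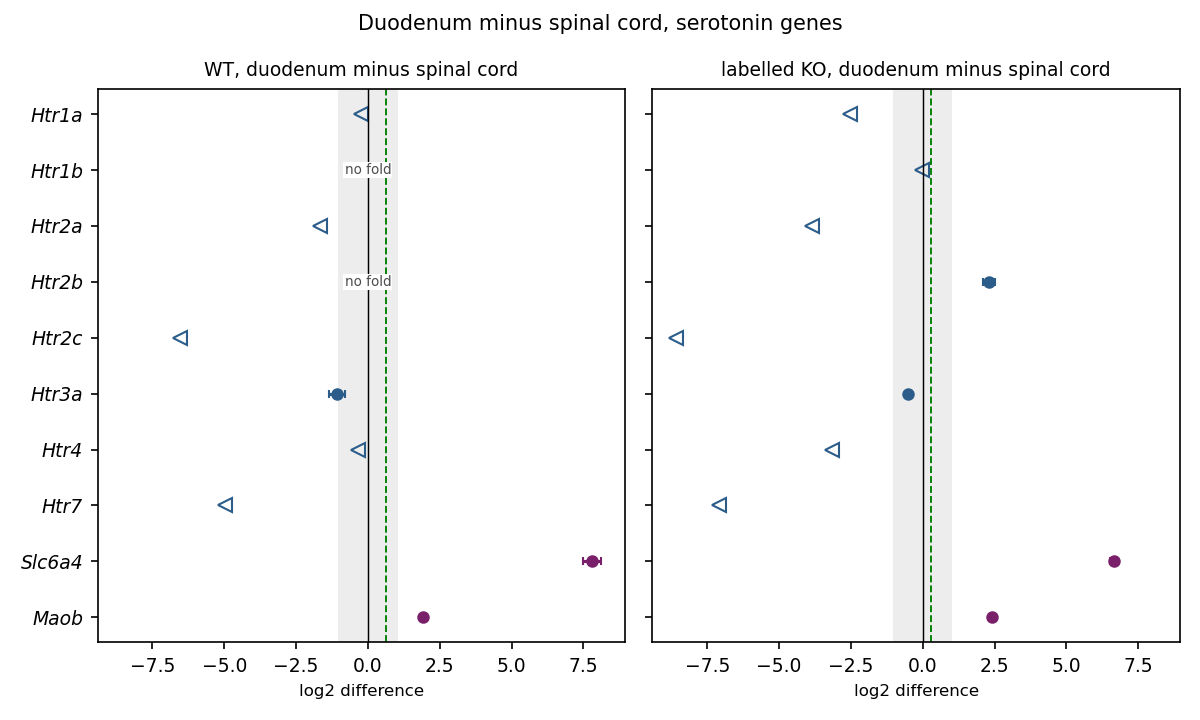
Log2 difference, duodenum minus spinal cord, for each serotonin gene in WT (left) and on the arrays labelled KO (right). Filled points are measured on both arrays with ± 1 technical SD, open triangles are lower bounds that point away from 0, "no fold" marks genes that could not be bounded, grey marks less than 2-fold and the green line is the median gene. *Slc6a4* lies farthest to the right and *Htr2c* farthest to the left, and *Maob*, *Htr2b* and *Htr3a* are the measured points whose side changes with the processing.

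The sequence before the transcription start is shown for *Slc6a4*, the gene higher in duodenum under every setting, and for *Htr2c* and *Htr7*, the receptors with the largest bounds in the other direction. RefSeq promoters (build GRCm38.p6) matched 7 of the 10 genes by symbol. Each run holds the 250 bases before the start, 5′ to 3′ on the strand of the gene, at chr11:76998347-76998596 (plus strand) for *Slc6a4*, chrX:146962263-146962512 (plus strand) for *Htr2c* and chr19:36057361-36057610 (minus strand) for *Htr7*. Capitals mark matches on either strand to the TATA box (TATAAA), the CCAAT box (CCAAT), the GC box (GGGCGG), the cyclic AMP response element (TGACGTCA) or the E-box (CACGTG), and no matches overlapped in these runs.
Slc6a4: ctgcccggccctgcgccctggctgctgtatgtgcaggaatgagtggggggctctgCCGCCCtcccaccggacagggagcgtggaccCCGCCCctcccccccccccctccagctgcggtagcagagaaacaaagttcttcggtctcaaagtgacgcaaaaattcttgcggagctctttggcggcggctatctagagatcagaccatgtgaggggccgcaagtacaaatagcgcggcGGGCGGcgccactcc
Htr2c: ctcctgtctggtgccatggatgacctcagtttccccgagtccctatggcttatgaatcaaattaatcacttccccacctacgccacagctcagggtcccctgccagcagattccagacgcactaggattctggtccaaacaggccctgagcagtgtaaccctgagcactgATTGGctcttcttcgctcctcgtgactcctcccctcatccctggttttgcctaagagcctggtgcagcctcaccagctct
Htr7: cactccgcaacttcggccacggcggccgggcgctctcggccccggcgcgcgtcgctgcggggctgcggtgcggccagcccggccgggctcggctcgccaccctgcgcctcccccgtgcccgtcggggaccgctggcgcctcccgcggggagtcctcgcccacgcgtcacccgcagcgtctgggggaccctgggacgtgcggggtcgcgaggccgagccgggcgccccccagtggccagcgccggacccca

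The *Slc6a4* run held 3 matches to the GC box, which begin 195, 164 and 15 bases before the start. The *Htr2c* run held 1 match to the CCAAT box, 80 bases before it, and the *Htr7* run held none of the motifs. Among the other members, the GC box occurred in *Htr1a* and *Htr2a* and the CCAAT box in *Htr1b*, so the motifs did not separate the transporter from the receptors. Of 32851 promoters of the same length, the GC box occurred in 32.7%, the CCAAT box in 33.8%, the TATA box in 12.4%, the E-box in 6.02% and the cyclic AMP response element in 1.55%. The *Htr7* run was 82.0% G or C with 41 CpG dinucleotides and the *Slc6a4* run 64.8% with 18, whereas the *Htr2c* run was 55.6% with 5. The median promoter had 52.4% and 6. A match is only a run of letters.

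In the spinal cord, the genotypes differed little in the receptors. *Slc6a4* was higher past 2-fold on the array labelled KO, 1 of the 10 genes, against 3.15% of the 25225 genes assessed in either direction, 2.28% higher and 0.864% lower. Its signal was 4.87 in WT and 15.5 on the array labelled KO, which gave a difference of 1.57 ± 0.33 (technical SD), or 2.97-fold. The WT signal lay close to the lowest one well above background. The scanner software gave these spots an error of 1.05 and 1.81. The difference was −2.20 with normexp background correction and 0.11 with flagged local backgrounds replaced. The call of a higher level thus held under neither, and the direction reversed under the first. Both corrections add an offset of 50, which exceeds both signals and shrinks folds at this level. They therefore cannot decide whether the 2-fold call holds. The highest local background was 15708 on the WT spinal cord array, against 36.5 to 47 on the other arrays.

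Platelets carry *Slc6a4*. In the spinal cord, some markers of platelets, red blood cells, fibroblasts and meninges, and smooth muscle were also higher on the array labelled KO. All 6 platelet markers were well above background on at least 1 spinal cord array, and 4 (*Pf4*, *Ppbp*, *Gp1ba* and *Gp6*) were higher past 2-fold on the array labelled KO. The differences of the 5 measured on both arrays ran from 0.67 to 1.71, and the log2 of the summed level of the list was −0.47 in WT and 1.01 on the array labelled KO. Of 5 red blood cell markers 3 were higher past 2-fold, with a summed level of 7.83 and 8.45, and of 6 markers of fibroblasts and meninges 4 were, with 2.75 and 3.90. Of 7 smooth muscle markers 2 were. Of all genes assessed in spinal cord, 2.28% were higher and 0.864% lower past 2-fold. With normexp background correction, under which *Slc6a4* reversed, 3 of 5 platelet markers were below 0, whereas all 5 red blood cell markers stayed above 0. Under that setting the median gene was at −0.45, and all 4 enterocyte markers with a value were lower past 2-fold. Values below 0 thus occurred in other lists as well. With flagged local backgrounds replaced, all 6 platelet markers were above 0, 2 of them past 2-fold. *Itgb3*, a platelet integrin gene whose product also binds the transporter, differed by 0.75. The part of these cells in the *Slc6a4* value was not tested. In the same comparison 0 of 8 neuronal markers (−0.30 to 0.15) and 0 of 7 astrocyte markers (−0.26 to 0.07) passed 2-fold.

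Of the receptors in the spinal cord, 0 of 8 passed 2-fold. With normexp background correction 5 were lower past 2-fold, namely *Htr1a* (−1.49), *Htr1b* (−2.29), *Htr2b* (−2.24), *Htr3a* (−1.12) and *Htr4* (−1.25). With flagged local backgrounds replaced, 0 of 8 passed 2-fold, and the median gene moved from −0.45 to −0.05. *Htr1b*, with signals of 7.66 and 13.2, differed by 0.68 ± 0.275 (technical SD), and by 0.074 by the names in the deposited table. *Htr4*, with 73.3 and 117, differed by 0.58 ± 0.093, and *Htr3a*, with 156 and 137, by −0.30 ± 0.079. These differences exceeded 2 technical SD, which does not cover the spread between mice. *Htr2c* differed by −0.19 ± 0.058, with −0.37 and −0.14 for its other probes, and *Htr7* by −0.11 ± 0.055. *Htr1a* (0.05), *Htr2a* (−0.04), *Htr2b* (−0.13) and *Maob* (0.08) each lay within 2 technical SD of 0. The median gene differed by −0.04.

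**Figure D3:**
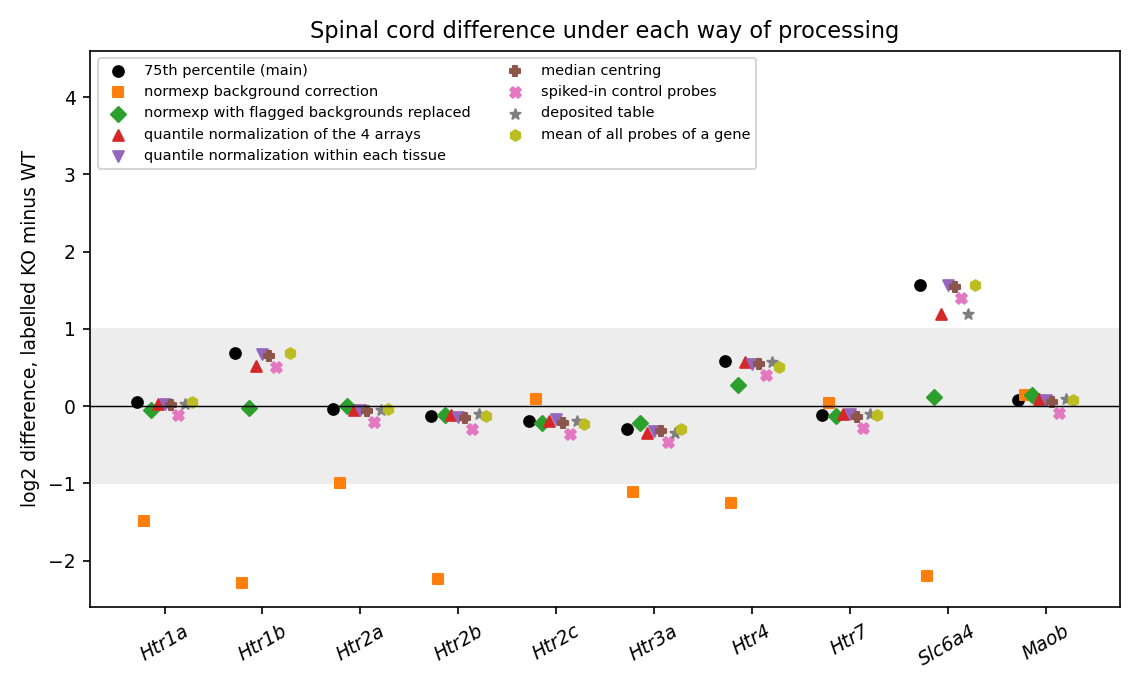
Log2 difference in the spinal cord, array labelled KO minus WT array, for each serotonin gene under 9 ways of obtaining the values. Black circles are the values in the text and grey marks less than 2-fold. *Slc6a4* runs from −2.20 to 1.57, whereas *Maob* stays between −0.09 and 0.14.

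In the duodenum, the transporter and the oxidase differed by less than 2-fold. *Slc6a4* had a signal of 81.7 in WT and 519 on the array labelled KO, and *Maob* of 354 and 2498. The array labelled KO was brighter as a whole, and after normalization the differences were 0.42 ± 0.084 (technical SD; 1.34-fold) and 0.57 ± 0.068 (1.49-fold), with a median gene at −0.11. *Htr3a* differed by 0.26 ± 0.30, within its technical SD. *Htr2b* was at least 1.06-fold higher on the array labelled KO, where it had a signal of 21.5 against 0.895. Thus 0 of the 4 genes that could be assessed passed 2-fold, against 19.1% of 21435 genes, 7.2% higher and 11.9% lower. With scaling on spiked-in control probes, which moved the median gene to 2.89, all 4 were higher past 2-fold. With either normexp correction *Htr3a* was lower, by −1.10, but the offset of 50 exceeds both its duodenum signals. The remaining 6 receptors were not well above background on either array, and these data cannot show whether they differ.

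Platelet and red blood cell markers went the other way here. Of 6 platelet markers 4 were lower past 2-fold on the array labelled KO, with a log2 summed level of 1.78 in WT and 0.41, and all 5 red blood cell markers were lower, by −4.19 to −2.53. With spiked-in control probes, 2 of 4 platelet and 1 of 5 red blood cell markers were above 0 instead. Of 6 mast cell markers on the array 3 were lower past 2-fold. Of 7 enterocyte markers 2 were lower (summed level 10.89 and 9.80) and of 7 smooth muscle markers 2 were (7.04 and 6.21). Of 10 markers of enterochromaffin and other enteroendocrine cells, *Chgb* and *Lmx1a* were higher, *Nkx2-2* was lower and the median difference was −0.02. Of all genes assessed in duodenum, 7.2% were higher and 11.9% lower past 2-fold. The part of these cells in the values of the serotonin genes was not tested. The *Maob* difference between genotypes was larger in duodenum than in spinal cord by 0.49, with a technical SD of 0.088, which was not tested over mice. For *Slc6a4* the order of the tissues was not stable, since the spinal cord value ran from −2.20 to 1.57.

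**Figure D4:**
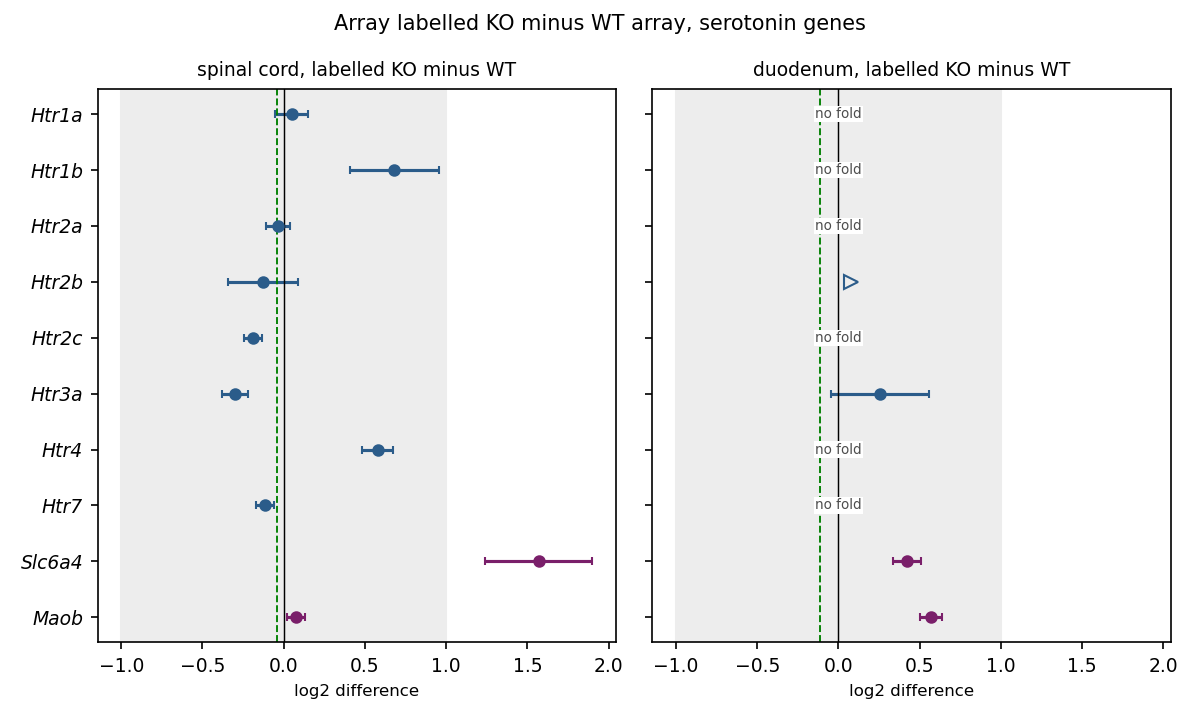
Log2 difference, array labelled KO minus WT array, for each serotonin gene in spinal cord (left) and duodenum (right). Symbols are as in the plot of duodenum against spinal cord, with ± 1 technical SD. *Slc6a4* in spinal cord is the point outside the grey band of less than 2-fold, and 6 receptors could not be assessed in duodenum.

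**Figure D5:**
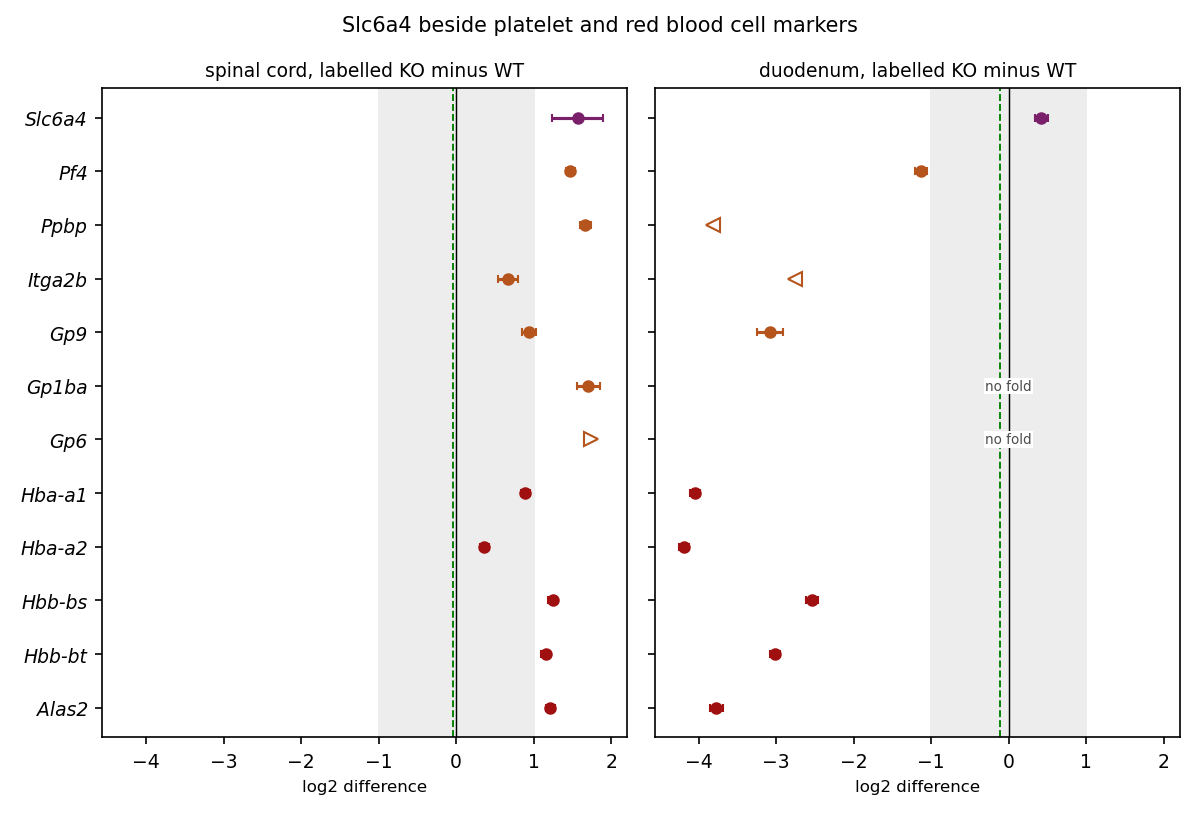
Log2 difference, array labelled KO minus WT array, for *Slc6a4* (purple), 6 platelet markers (orange) and 5 red blood cell markers (red), in spinal cord (left) and duodenum (right), with ± 1 technical SD or a bound (open triangle). The blood cell markers lie to the right of 0 in spinal cord and to the left in duodenum, except those marked "no fold", and *Slc6a4* lies to the right in both, although the normexp correction in spinal cord and spiked-in control probes in duodenum move some of them across 0.

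The other genes of the pathway were counted from lists by role, 40 of 41 of which are on the array. Of 6 other receptors (*Htr1d*, *Htr1f*, *Htr3b*, *Htr5a*, *Htr5b* and *Htr6*), 5 were well above background in spinal cord and 0 in duodenum, the exception in spinal cord being *Htr3b*, the channel partner of HTR3A. In spinal cord 0 of the 5 passed 2-fold between genotypes, with differences of −0.26 to 0.17. On the arrays labelled KO, *Htr1f* was at least 3.42-fold and *Htr5b* at least 3.34-fold lower in duodenum.

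Of 9 genes of serotonin synthesis and storage, 1 was higher past 2-fold on the duodenum array labelled KO and 0 were lower. Of all genes assessed, 7.2% were higher and 11.9% lower. The median difference was 0.79 over the 8 measured. The higher gene was *Pts*, an enzyme gene for tetrahydrobiopterin, the cofactor of the hydroxylases, with signals of 11.8 and 208 and a difference of 1.90 ± 0.163 (technical SD). The *Pts* difference was 0.36 under both normexp corrections. *Tph1*, singled out after its values were seen, had signals of 87.1 and 803 and differed by 0.96 ± 0.086. In spinal cord *Tph1* was not well above background, at 1.16 and 1.18, and it was at least 260-fold higher in WT duodenum and at least 563-fold higher on the array labelled KO. Over the ways of processing the bound on the log2 difference ran from 1.70 to 8.24 and from 5.05 to 9.41. *Tph2* was well above background in spinal cord alone, at 9.11 and 6.91. In spinal cord 0 of the 8 genes that could be assessed passed 2-fold between genotypes.

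Between tissues, 4 synthesis and storage genes were higher and 3 lower in WT duodenum, and 5 and 0 on the arrays labelled KO, beside 30.2% and 23% of all genes assessed in WT and 30.3% and 25.4% on the arrays labelled KO. *Gch1*, for the first step of cofactor synthesis, was higher by 3.51 and 3.08 and *Spr*, for the last, by 2.14 and 1.24, WT first. The other *Gch1* probe, well above background on every array, gave 0.94 in WT, short of 2-fold, and 1.42 on the arrays labelled KO. *Slc18a1*, the vesicular transporter of endocrine cells, was higher by 1.97 in WT, and *Ddc*, the decarboxylase that forms serotonin, by 1.05 on the arrays labelled KO. *Slc18a2*, the vesicular transporter of neurons, *Pts* and *Qdpr*, which recycles the cofactor, were lower in WT duodenum by −1.45, −1.93 and −1.27. The directions of *Spr*, *Ddc*, *Slc18a1*, *Slc18a2* and WT *Gch1* changed with the processing, as given under the alternatives at the end.

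Of 11 measured genes for other routes of uptake and breakdown, 6 were well above background in duodenum. *Slc6a3*, the dopamine transporter, was the 1 gene higher past 2-fold on the duodenum array labelled KO, with signals of 37.1 and 398 and a difference of 1.18 ± 0.105 (technical SD), and 0 of 7 passed in spinal cord. Of all genes assessed, 7.2% were higher in that duodenum comparison, and 3.15% passed in spinal cord. Under both normexp corrections the *Slc6a3* difference was 0.61, short of 2-fold. *Maoa*, which prefers serotonin, differed by 0.37 in duodenum and by −0.11 in spinal cord. *Slc29a4*, a low-affinity monoamine transporter, was lower in duodenum by −4.00 in WT and −4.63 on the arrays labelled KO, and its direction held under every way of processing. *Aldh2*, for the next step after oxidation, was higher by 1.24 and 1.74, *Aanat*, which acetylates serotonin, by 1.02 in WT and *Maoa* by 1.31 on the arrays labelled KO, and these directions changed with the scaling.

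Of 14 partners and G proteins, *Gnai1* was higher past 2-fold on the duodenum array labelled KO (1.14), and *Gnai2* (−1.59), *Gnai3* (−1.52) and *Gnaz* (−2.97) were lower. These encode alpha subunits of the inhibitory class, to which HTR1A and HTR1B couple. Of all genes assessed, 7.2% were higher and 11.9% lower. The *Gnaz* probe given had duodenum signals of 35.7 and 21.6. Its other probe was not well above background in either duodenum, at 2.17 and 3.18. Against spinal cord in WT, the probe given was higher in duodenum by 1.91, and the other was bounded at −3.02. Between genotypes in duodenum, *Gnai1* was −0.32 under both normexp corrections, and *Gnai2*, *Gnai3* and *Gnaz* were above 0 with spiked-in control probes. In spinal cord 0 of 14 passed. *Gnao1*, a neuronal alpha subunit, was lower in duodenum by −5.21 in WT and −4.85 on the arrays labelled KO, *Gnas*, which couples HTR4 and HTR7 to adenylyl cyclase, by −1.49 and −1.04, *Arrb1* by −1.07 in WT and *Gnaq* by −1.56 on the arrays labelled KO. Another *Gnas* probe, well above background on every array, gave −6.89 and −6.15, so the size for *Gnas* depends on the probe. A further *Gnas* probe was not well above background in either duodenum. The other *Gnao1* probe gave −2.24 and −3.88. *S100a10*, whose product binds HTR1B and HTR4, was higher by 3.43 and 2.71 and *Gna11* by 3.55 and 3.44. *Gnai2* was higher by 2.67 in WT and *Gnai3* by 1.83 on the arrays labelled KO. With spiked-in control probes *S100a10*, *Gna11* and *Gnai2* were lower in WT duodenum.

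For the 3 members well above background on all 4 arrays, the genes of most similar pattern were sought among 12024 named genes, by the root mean square distance between levels centred on the gene's mean over the 4 arrays. They were *Ms4a8a* (0.23), *Chp2* (0.24) and *Pdzd3* (0.25) for *Slc6a4*, *Smndc1* (0.037), *Clcn7* (0.046) and *Wdfy1* (0.046) for *Htr3a*, and *Polg2* (0.037), *Adap2* (0.044) and *Irf2* (0.046) for *Maob*. With 4 points a small distance is a description only.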

How the data were processed

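Total RNA (0.1 µg per sample, RNA integrity number above 7.0 per the labels) was labelled with Cy3 and hybridized to 4 1-colour Agilent mouse arrays on 1 slide. The authors deposited the scanner output of Agilent Feature Extraction 11.5.1.1, in which the intensity of a spot has its background subtracted and spatial trends removed, and a table of log2 values. Compared with the scanner files, that table holds log2 of the signal, raised to at least 1, normalized by quantiles over the 4 arrays. It was used as an alternative, without *Htr1b*.

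Control and outlier spots were left out and spots of a probe were averaged in R 4.3.3 with limma 3.58.1. Log2 signals minus the 75th percentile of the array were compared in Python 3.11.15. A gene was counted as past 2-fold if well above background on at least 1 of the arrays compared. The technical SD is the median over the 50 probes, of those spotted 10 times, nearest in brightness. Probes were named by RefSeq accession, 25868 of 26391 matched. The calculation was tested on simulated data. No p-value was computed, since each group had 1 array, and precision is limited by that number.

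The members and lists were chosen with earlier results of these data known. All 10 members are named. Other pathway genes are named if past 2-fold between genotypes, or if among the 3 brightest on each side of a list between tissues. 1 gene so chosen is not reported here. Alternatives were normexp background correction (offset 50), other scalings, the deposited table, all probes of a gene, other filters on dim probes and a 1.5-fold threshold. The offset is added to every signal, so both normexp corrections alter most the differences of probes with signals below it.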

Additional observations from a re-analysis of the deposited data

Results flagged for a closer look

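*Htr3a* differed between genotypes by 0.26 in duodenum and by −0.30 in spinal cord, array labelled KO minus WT array, so the single pair of arrays in each tissue lay on opposite sides of 0. The gap between the tissues was 0.55, with a technical SD of 0.31. It was not tested. Under normexp background correction the duodenum difference was −1.10, where the offset of 50 exceeds both duodenum signals.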

How the results depend on the processing

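Of the alternatives to the values in the text, 110 for the serotonin genes moved by less than a technical SD, 120 moved by more, and 7 reversed a difference past 2-fold. In all, 21 changed sign. The number of the 10 genes past 2-fold changed by over 1.5 times as follows, and the cause was not tested. In the spinal cord, KO minus WT, 1 gene passed, but 2 at 1.5-fold, 6 with normexp background correction and 0 with flagged local backgrounds replaced. In the duodenum, KO minus WT, 0 passed, but 6 without a filter on dim probes, 1 with either normexp correction and 4 with spiked-in control probes. Between tissues in WT 6 passed, but 3 when both arrays had to be well above background and 10 with spiked-in control probes. In the arrays labelled KO 8 passed, but 3 with both arrays above background and 5 with either normexp correction.

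With normexp correction, without and with flagged backgrounds replaced, the WT tissue difference was 0.25 and 1.14 for *Htr3a* and 0.17 and 0.96 for *Slc18a2*, which was 0.72 with all its probes averaged, and the *Gnai1* difference in duodenum was −0.32 and −0.32. *Slc6a4* in spinal cord was −2.20 without the replacement. *Htr3a* on the arrays labelled KO, which was short of 2-fold, was 0.26 between tissues. With quantile normalization within each tissue, the tissue difference on the arrays labelled KO was −0.32 for *Htr2b*, −0.13 for *Maob*, −0.79 for *Aldh2*, −1.49 for *Ddc*, −0.77 for *Gnai3*, −1.32 for *Maoa* and −1.32 for *Spr*. In WT it was −0.80 for *Maob*, −1.63 for *Aanat*, −1.51 for *Aldh2*, −0.16 for *Gnai2*, −0.71 for *Slc18a1* and −0.66 for *Spr*. With spiked-in control probes, the WT tissue difference was −3.12 for *Maob*, −4.01 for *Aanat*, −3.79 for *Aldh2*, −1.53 for *Gch1*, −1.49 for *Gna11*, −2.37 for *Gnai2*, −1.61 for *S100a10*, −3.07 for *Slc18a1* and −2.90 for *Spr*. On the arrays labelled KO it was −0.13 for *Aldh2*, −0.82 for *Ddc*, −0.041 for *Gnai3*, −0.55 for *Maoa* and −0.63 for *Spr*. The duodenum difference, KO minus WT, was 1.41 for *Gnai2*, 1.48 for *Gnai3* and 0.027 for *Gnaz*. These scalings shift all genes, and the median gene differed between tissues in WT by −2.08 with quantile normalization within each tissue and by −4.41 with spiked-in control probes.

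The tissue directions of *Slc6a4*, *Htr2c* and *Htr7* held under all 9 ways of obtaining the values. Leaving out an array was not done, since each group has 1. No paired analysis was possible for the same reason, and the labels do not say whether both tissues of a genotype came from the same mouse. A fit that pools genotypes or tissues was not made. Of the receptors, 6 of 8 were not well above background in either duodenum.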
